A study of Homo sapiens with 6 samples.

Results

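The inflammatory caspases and the genes of pyroptosis were examined in AsPC-1 cells that overexpressed MMP28. The set held 10 of the 58735 genes in the deposited count table and was taken by gene symbol: the sensor NLRP1, the adaptor PYCARD, the caspases CASP1, CASP4 and CASP5, the caspase recruitment domain proteins CARD16, CARD17 and CARD18, and the pore formers GSDMD and GSDME. The genes were chosen by their levels in these same 6 libraries, so their differences between the groups are given as a description. No p-value is printed for them, and the number that passed the threshold of the fit across all genes is no evidence about them.

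AsPC-1 is an established human pancreatic cancer cell line. RNA was sequenced from wild-type cells that received an empty lentivirus (Vector, n = 3) and from cells infected with a lentivirus that carried MMP28, a secreted matrix metalloproteinase (OE-MMP28, n = 3). According to the study's methods, its lentiviral vectors carried a GFP-Puro cassette and infected cells were kept in puromycin until stable lines remained. Whether a line was 1 clone or a pool, and whether the 3 libraries of a group came from separate cultures, was not given in the sources used here, so p-values measure only the spread between these libraries.

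Inflammasomes are protein complexes that sense infection or damage inside a cell. A sensor such as NLRP1 assembles, often through the adaptor PYCARD (also called ASC), a platform on which caspase-1 is activated, whereas caspase-4 and caspase-5 bind bacterial lipopolysaccharide directly. These caspases cleave GSDMD, whose released fragment forms membrane pores and causes the lytic death called pyroptosis, and caspase-1 also matures the cytokines IL-1β and IL-18. CARD16, CARD17 and CARD18 resemble the recruitment domain of caspase-1, lack a protease domain and are known as inhibitors of its recruitment. GSDME is cleaved by caspase-3 and links apoptotic signalling to pore formation.

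CASP4, CASP5, CASP1, CARD16, CARD17 and CARD18 lie next to each other on chromosome 11 (11q22), all on the minus strand, and arose as copies of one another. Their similarity bears on how reads could be assigned, so the first 90 coding bases of the CASP1-like genes are given here, each from a coding transcript of GENCODE 29 on GRCh38. Lower case marks a base that is the same as in CASP1, and capitals mark a base that differs.
CASP1: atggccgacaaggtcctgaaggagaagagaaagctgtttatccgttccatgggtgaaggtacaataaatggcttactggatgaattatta
CARD16: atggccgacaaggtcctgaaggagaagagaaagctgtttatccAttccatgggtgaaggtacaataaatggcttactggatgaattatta
CARD17: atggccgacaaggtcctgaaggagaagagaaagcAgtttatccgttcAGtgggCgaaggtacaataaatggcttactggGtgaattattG
CARD18: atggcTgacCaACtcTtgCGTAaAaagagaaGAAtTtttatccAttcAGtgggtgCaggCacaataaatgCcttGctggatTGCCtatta
In this stretch CARD16 differed from CASP1 at 1 base, CARD17 at 6 and CARD18 at 25. Over the first 270 coding bases, the whole coding length of CARD18 without its stop codon, the differences numbered 3, 20 and 95, which left 98.9%, 92.6% and 64.8% identity. The coding sequences held 404 codons for CASP1, 197 for CARD16, 110 for CARD17 and 90 for CARD18.

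Sequence shared between genes was measured as the share of 50-base windows along a gene's annotated transcripts that also occurred, letter for letter, in another gene. CASP1 shared 180 of its 4123 windows (4.37%) with CARD16, and these 180 made up 10.6% of the 1706 windows of CARD16. CARD17 shared 17 of 1230 windows (1.38%) with any gene, of which 15 were with the pseudogene CASP1P2. CASP4 and CASP5 shared 10 windows with each other, which were 0.132% of the windows of CASP4 and 0.576% of those of CASP5. CARD18 shared no window with the other 5 genes. By exact matches of 50 bases, most windows of CASP1 and CARD16 were therefore distinct, and among the 11q22 genes the overlap was largest between these 2. A window that differs at 1 base counts as not shared, so stretches that are nearly the same are left out of these shares.

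**Figure D1:**
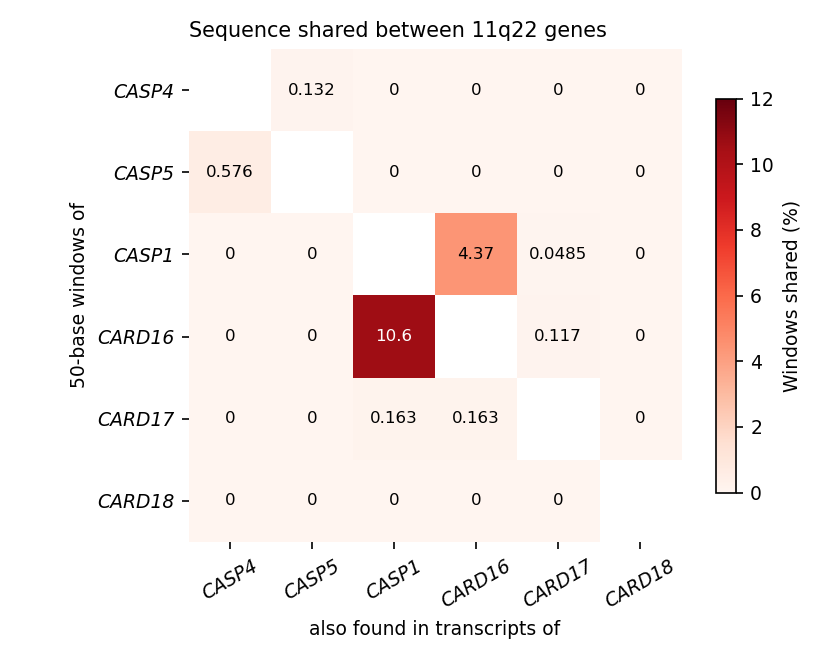
Share of the 50-base transcript windows of each 11q22 gene (vertical axis) that also occur in transcripts of another (horizontal axis), in percent, from 0 (white) to 12 (dark red). The largest value is the 10.6% of CARD16 windows found in CASP1, followed by the 4.37% of CASP1 windows found in CARD16.

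All 6 libraries were usable, with total counts of 13633249 to 16691458. Of all genes, 15319 passed the filter on low counts and were tested with edgeR's quasi-likelihood test, with p-values adjusted by the Benjamini-Hochberg procedure over all of them. MMP28 (ENSG00000271447, chromosome 17, 35756249 to 35795707, minus strand), the overexpressed gene, had 5.17, 9.11 and 8.43 FPKM (fragments scaled to gene length and library size) in the Vector libraries and 13.1, 13.9 and 15.1 FPKM in the OE-MMP28 libraries. Its log2 fold change was 0.90 (SE 0.19, edgeR adjusted p = 0.00226), and every OE-MMP28 library was higher than every Vector library, as labelled. Counts per gene do not separate reads of the transgene from those of the cell's own MMP28. The 7 epithelial markers fixed for the cell type, EPCAM and CDH1 among them, all passed the filter. Of them KRT19 rose (0.71 on the log2 scale, edgeR adjusted p = 0.00175), and CDH1 (-0.59, edgeR adjusted p = 0.0113) and CLDN4 (-0.61, edgeR adjusted p = 0.0135) fell, with adjusted p-values of up to 0.0205, 0.0609 and 0.0683 over the alternatives. Of 5 fibroblast markers only LUM passed the filter, at 37.3 FPKM in the Vector and 45.3 FPKM in the OE-MMP28 group. COL1A1, COL1A2, DCN and PDGFRB did not, with Vector means of 0.0409, 0.00195, 0.0202 and 0.0387 FPKM. The leukocyte marker PTPRC had at most 1 count per library, and the myeloid marker TYROBP had none. Of 9 myeloid markers 2, LYZ and CD14, passed the filter. LYZ fell (edgeR adjusted p = 0.0376, up to 0.152 over the alternatives), and CD14 was not called (edgeR adjusted p = 0.243). The summed level of the 9 was 295 to 326 CPM in the Vector and 189 to 262 CPM in the OE-MMP28 libraries. Nearly all of it was LYZ, with group means of 312 and 226 CPM, against 1.85 and 1.2 CPM for CD14. The share of mitochondrial counts was 11.9% to 14.8% in the Vector and 8.8% to 11.9% in the OE-MMP28 libraries, and its part in the values of the set was not tested. In such bulk RNA, fewer cells with a transcript and less of it per cell cannot be told apart.

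Of the 10 genes, 7 passed the filter and 3 (CASP5, CARD17 and CARD18) did not. The filter asked for about 0.655 CPM (counts scaled to the library total) in 3 libraries. CASP1 and CARD16 were below that level in every Vector library and above it in every OE-MMP28 library. NLRP1 reached it in the OE-MMP28 libraries but not in all Vector libraries. CASP4, PYCARD, GSDMD and GSDME also reached it in every Vector library. At an adjusted p under 0.05 in the edgeR fit, 4 were higher in OE-MMP28 (CASP1, CASP4, CARD16 and NLRP1), against 11.7% of all genes tested, and 1 was lower (GSDME), against 11.6%. The libraries of the groups did not overlap in 5 genes that were higher, the 4 above and CASP5 on a few counts, against 18.1% of the genes tested, and in 1 that was lower, against 19.7%. Because the set was selected on these values, nothing is read from the counts.

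**Figure D2:**
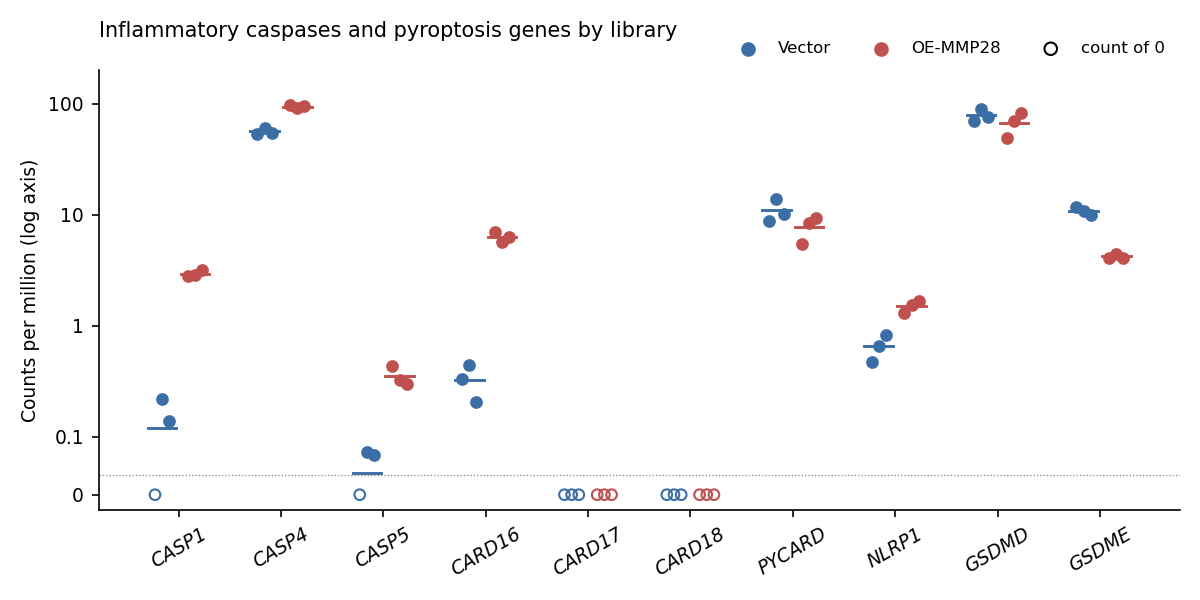
Counts scaled to the library total (CPM, log axis) of the 10 genes in each Vector (blue) and OE-MMP28 (red) library, with a line at the mean of each group and open circles below the dotted line for a count of 0. CASP1, CARD16, CASP4, CASP5 and NLRP1 lie higher in all 3 OE-MMP28 libraries, GSDME lies lower, PYCARD and GSDMD overlap, and CARD17 and CARD18 are at 0 throughout.

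Compared per transcript length, the set was led by GSDMD and CASP4. In the Vector group the order of the mean levels was GSDMD at 15.3 FPKM, CASP4 at 7.67, PYCARD at 6.53, GSDME at 1.22, CARD16 at 0.192, NLRP1 at 0.0504, CASP1 at 0.0322 and CASP5 at 0.0297. The ranges of CASP4 and PYCARD overlapped, as did those of NLRP1, CASP1 and CASP5, and the other neighbours in that order did not. In the OE-MMP28 group the order was GSDMD at 13 FPKM, CASP4 at 12.9, PYCARD at 4.64, CARD16 at 3.72, CASP1 at 0.791, GSDME at 0.474, CASP5 at 0.221 and NLRP1 at 0.117. There the ranges of GSDMD and CASP4 overlapped, as did those of PYCARD and CARD16. CARD16 and CASP1 thus stood below GSDME in the Vector group and above it in the OE-MMP28 group.

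NLRP1 (ENSG00000091592, chromosome 17, 5499427 to 5619424, minus strand), the sensor of the set, had few reads in every library. Its counts were 7, 9 and 12 in the Vector group and 21, 24 and 28 in the OE-MMP28 group, or 0.0504 ± 0.014 and 0.117 ± 0.0132 FPKM (SD, n = 3). Every OE-MMP28 library was higher than every Vector library. The log2 fold change was 1.22 (SE 0.42), a 2.34-fold level, and it ran from 1.02 without Vector replicate 1 to 1.43 without Vector replicate 3. Its place among the called genes was lost in each of the 6 fits that left out a library.

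PYCARD (ENSG00000103490, chromosome 16, 31201485 to 31203450, minus strand), the adaptor that links sensors to caspase-1, went the other way on average but not beyond its spread. It had 130, 188 and 149 counts in the Vector libraries and 88, 131 and 156 in the OE-MMP28 libraries, which is 6.53 ± 1.67 and 4.64 ± 1.15 FPKM (SD, n = 3). The groups overlapped, since OE-MMP28 replicate 3 lay within the Vector range in FPKM and replicate 2 just under it. The log2 fold change was -0.48 (SE 0.24), and between -0.64 without OE-MMP28 replicate 3 and -0.26 without Vector replicate 2. The antisense gene PYCARD-AS1 covers 59.7% of the exon length of PYCARD, and no source used here states counting by strand. Whether reads of the pair were told apart is therefore not known, and the level of PYCARD and its rank in the set could depend on it. PYCARD-AS1 itself was listed with at most 1 count per library.

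CASP1 (ENSG00000137752, chromosome 11, 105025443 to 105035250, minus strand), the caspase that inflammasomes activate, was nearly undetected in Vector cells and clearly detected in OE-MMP28 cells. Its counts were 0, 3 and 2 in the Vector libraries and 45, 44 and 53 in the OE-MMP28 libraries. In FPKM these were 0, 0.06 and 0.0367 against 0.769, 0.751 and 0.852, or 0.0322 ± 0.0303 and 0.791 ± 0.0539 (SD, n = 3). The pooled CPM of the groups, 5 counts against 142, had a ratio of 25.4 with an exact 95% counting interval of 10.6 to 79.3. No molecular identifiers were used, so reads can be copies of 1 molecule and all intervals and limits given hold counting error alone. They leave out the spread between libraries. For PYCARD and GSDMD, whose groups overlapped, such intervals were 0.624 to 0.823 and 0.815 to 0.898 and did not contain 1.

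The fitted log2 fold change of CASP1 was 4.58 (SE 0.56). With so few Vector counts it depended on single libraries, being 4.00 without Vector replicate 1, which had no count, and 5.31 without Vector replicate 2, which had 3. Leaving out any of the OE-MMP28 libraries gave values from 4.52 to 4.60. The level of CASP1 in OE-MMP28 cells remained far below that of CASP4, with 0.791 against 12.9 FPKM.

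CASP4 (ENSG00000196954, chromosome 11, 104942866 to 104969436, minus strand), a cytosolic receptor for lipopolysaccharide that cleaves GSDMD, was the most abundant caspase of the set in both groups. The Vector libraries held 797, 825 and 793 counts and the OE-MMP28 libraries 1556, 1410 and 1585. In FPKM the values were 7.18, 8.41 and 7.42 against 13.6, 12.3 and 13, with means of 7.67 ± 0.653 and 12.9 ± 0.652 (SD, n = 3). The groups were well apart, and the log2 fold change of 0.76 (SE 0.15, 1.70-fold) stayed between 0.72 and 0.83 when any 1 library was left out. CASP4 was therefore the caspase with the smallest fold and the largest difference in counts.

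CASP5 (ENSG00000137757, chromosome 11, 104994235 to 105023168, minus strand), the close relative of CASP4 that also binds lipopolysaccharide, stayed under the filter. It had 0, 1 and 1 counts in the Vector libraries and 7, 5 and 5 in the OE-MMP28 libraries. The sums were 2 and 17, and the ratio of the pooled CPM was 7.59 with an exact 95% counting interval of 1.80 to 67.7. A fit without the filter gave a log2 fold change of 2.73 with an SE of 1.19. Reads of CASP5 were thus few in all libraries, but none of the OE-MMP28 libraries was as low as the highest Vector library.

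CARD16 (ENSG00000204397, chromosome 11, 105041326 to 105101431, minus strand), also called COP and known as an inhibitor of caspase-1 recruitment, differed about as much as CASP1 and at a higher level. It had 5, 6 and 3 counts in the Vector libraries and 112, 88 and 104 in the OE-MMP28 libraries. In FPKM these were 0.194, 0.263 and 0.121 against 4.20, 3.29 and 3.66, or 0.192 ± 0.0712 and 3.72 ± 0.456 (SD, n = 3). The ratio of the pooled CPM was 19.4 with an exact 95% counting interval of 11.4 to 35.9.

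The fitted log2 fold change of CARD16 was 4.26 (SE 0.37) and lay between 4.02 and 4.53 when any 1 library was left out. On the scale of log2(FPKM + 1) it was 1.98, because the added 1 exceeds every Vector value of the gene. CARD17 (ENSG00000255221, chromosome 11, 105092469 to 105101431, minus strand) and CARD18 (ENSG00000255501, chromosome 11, 105137721 to 105531697, minus strand), the other CARD-only inhibitors, had a count of 0 in all 6 libraries. A count of 0 allows up to 3 counts, which is 0.180 to 0.220 CPM depending on the library. Of the 3 CARD-only genes, CARD16 was therefore the one detected, although CARD17 overlaps 1.42% of its exon length on the same strand.

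Since CASP1 and CARD16 are nearly identical over the recruitment domain, their split was examined in each library. CARD16 made up 71.3%, 66.7% and 66.2% of the summed counts of CASP1, CARD16, CARD17 and CARD18 in OE-MMP28 replicates 1, 2 and 3. In the Vector libraries the sums were only 5, 9 and 5 counts, of which CARD16 held 100%, 66.7% and 60%. The share of CARD16 was hence of the same order in the OE-MMP28 libraries, and the Vector libraries had too few reads to give it. A steady share does not show whether shared reads were divided correctly.

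A sum over the 4 genes does not depend on how the counted reads were divided among them, though it does depend on whether reads that match several genes were dropped or counted more than once, which was not stated. It was 0.334, 0.660 and 0.343 CPM in the Vector libraries and 9.73, 8.48 and 9.41 CPM in the OE-MMP28 libraries. Put through the same edgeR fit as 1 gene, it had a log2 fold change of 4.38 (SE 0.33), between the values of CASP1 and CARD16, and between 4.20 and 4.76 when any 1 library was left out. The sum of CASP4 and CASP5 had a log2 fold change of 0.77 (SE 0.15), close to that of CASP4 alone. CARD17 and CARD18 had no counts, so the sum over the 4 genes was that of CASP1 and CARD16 and had to lie near both. CASP5 added only few counts to those of CASP4. The sums are therefore no separate check on how shared reads were divided.

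GSDMD (ENSG00000104518, chromosome 8, 143553207 to 143563062, plus strand), the pore former that caspase-1, caspase-4 and caspase-5 cleave, was abundant in both groups and did not differ beyond its spread. The Vector libraries had 1050, 1225 and 1111 counts and the OE-MMP28 libraries 782, 1085 and 1380, or 15.3 ± 2.2 and 13 ± 3.2 FPKM (SD, n = 3). The groups overlapped, with OE-MMP28 replicate 1 the lowest of all 6 libraries by FPKM. The log2 fold change was -0.22 (SE 0.18), and between -0.40 without OE-MMP28 replicate 3 and -0.05 without OE-MMP28 replicate 1.

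GSDME (ENSG00000105928, chromosome 7, 24698351 to 24758113, minus strand), the pore former cleaved by caspase-3, was lower in OE-MMP28 cells. It had 176, 148 and 144 counts in the Vector libraries and 66, 69 and 68 in the OE-MMP28 libraries. In FPKM these were 1.3, 1.24 and 1.1 against 0.472, 0.492 and 0.457, with means of 1.22 ± 0.1 and 0.474 ± 0.0176 (SD, n = 3). The OE-MMP28 libraries lay within a narrow range below every Vector library. The log2 fold change of -1.35 (SE 0.22) put the level at 39.3% of that in Vector cells, and it stayed between -1.41 and -1.29 when any 1 library was left out. With limma it was -0.59 on the scale of log2(FPKM + 1) and -1.19 on that of log2(FPKM + 0.1), where the added constant shrinks changes of low values.

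The genes of the set differed in direction, which is a description only, because they were chosen by their levels in these same libraries. Of the inflammatory caspases and their CARD-only relatives, every gene with any reads was higher in all 3 OE-MMP28 libraries. For CASP5 this rested on a few counts. The adaptor and GSDMD overlapped between the groups, and GSDME was lower. Groups without overlap were also found in 18.1% of all genes tested in the higher direction and in 19.7% in the lower. Among the other genes tested within 10 Mb of the caspase cluster, 42.7% were called higher in the edgeR fit. Transcript levels carry no information on the cleavage of caspases or gasdermins.

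**Figure D3:**
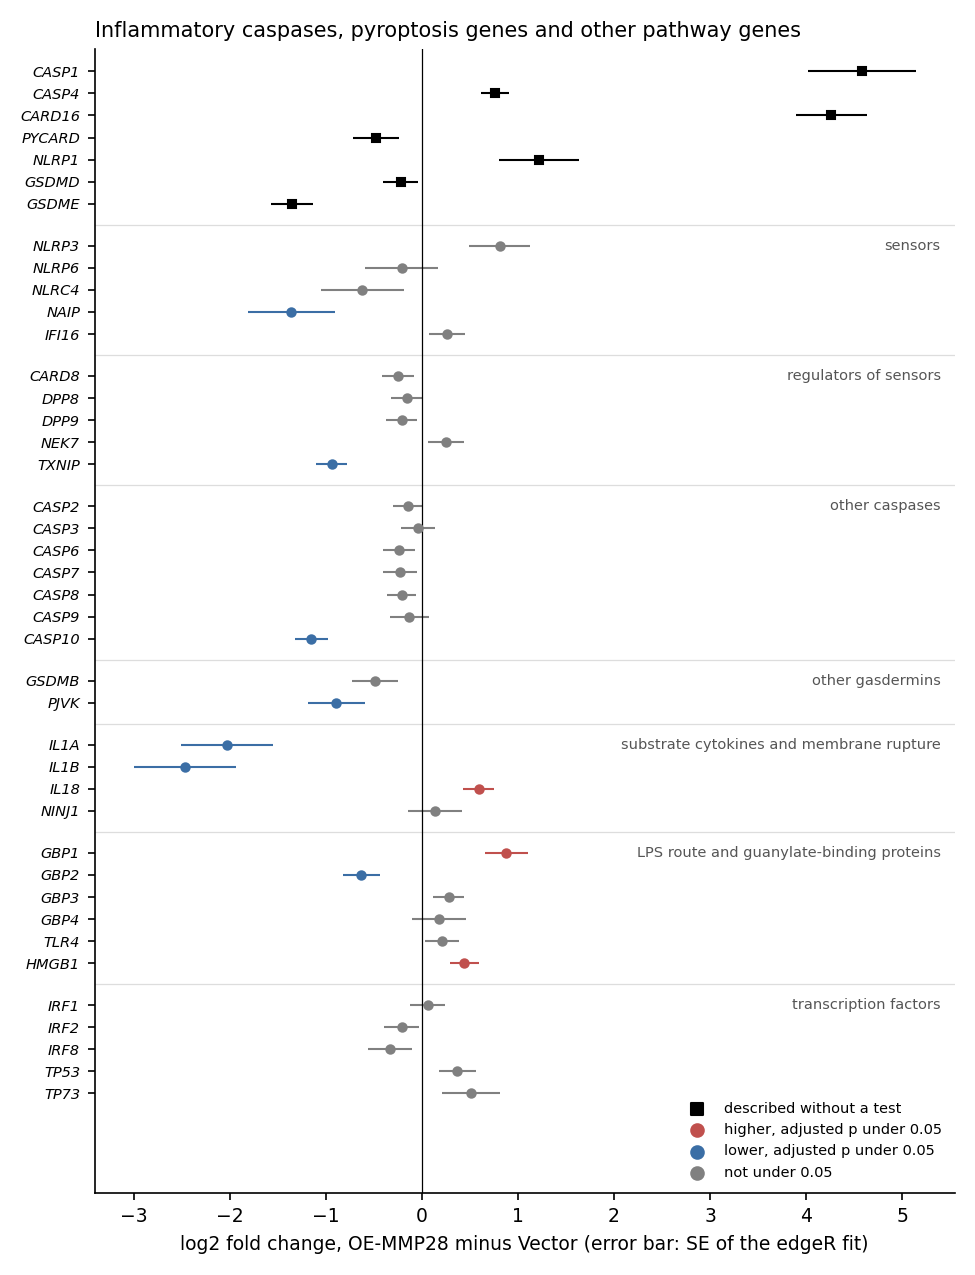
Log2 fold change between OE-MMP28 and Vector (horizontal axis) with the SE of the edgeR fit, for the 7 genes of the set that passed the filter (black squares, no test) and 34 other genes of the pathway by role (circles, red for higher and blue for lower at an adjusted p under 0.05, grey for neither). CASP1 at 4.58 and CARD16 at 4.26 lie farthest to the right, and IL1B at -2.47 and IL1A at -2.03 farthest to the left.

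The other genes of the pathway were taken from a list of 45, grouped by role, of which 34 passed the filter. In the edgeR fit 3 of the 34 rose, against 11.7% of all genes tested, and 7 of the 34 fell, against 11.6%, at an adjusted p under 0.05. The median log2 fold change of the 34 was -0.18, against 0.014 for all genes tested. The list was chosen with earlier results of these data known. Its counts, its median and the adjusted p-values of its genes are therefore given as a description.

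The substrates of caspase-1 split. IL18, a cytokine that caspase-1 matures, rose from 74.0, 116 and 107 FPKM in the Vector libraries to 153, 138 and 153 in the OE-MMP28 libraries, a log2 fold change of 0.59 (SE 0.16, edgeR adjusted p = 0.0128), though without Vector replicate 1 the adjusted p was 0.0626. IL1B, the other classical substrate, fell from 0.380, 1.31 and 0.482 FPKM to 0.102, 0.183 and 0.0960, a log2 fold change of -2.47 (SE 0.53, edgeR adjusted p = 0.00211). Vector replicate 2 held the highest IL1B value, and without it the log2 fold change was -1.73. IL1A, an alarmin of the same family, fell by 2.03 on the log2 scale (SE 0.48, edgeR adjusted p = 0.00441), from 0.649 ± 0.0922 to 0.156 ± 0.0468 FPKM (SD, n = 3). IL18 was thus abundant and higher, whereas IL1A and IL1B were scarce and lower. NINJ1, which ruptures the plasma membrane late in lytic death, had a log2 fold change of 0.14 (SE 0.28, edgeR adjusted p = 0.748).

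Among 10 sensors, 5 passed the filter and only NAIP, which recognises bacterial flagellin and needle proteins, was called. It fell by 1.36 on the log2 scale (SE 0.45, edgeR adjusted p = 0.0349), from 0.225 ± 0.111 to 0.0866 ± 0.0437 FPKM (SD, n = 3). The adjusted p was 0.274 without Vector replicate 3, 0.169 without OE-MMP28 replicate 2 and 0.0900 without OE-MMP28 replicate 3. IFI16, a DNA sensor and the most abundant of those not called, had a log2 fold change of 0.26 (SE 0.19, edgeR adjusted p = 0.360). AIM2 and NLRP7 had a count of 0 in all libraries.

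Of the 6 regulators of sensors, 5 passed the filter. TXNIP, a thioredoxin-binding protein that can bind NLRP3, fell by 0.94 on the log2 scale (SE 0.16, edgeR adjusted p = 0.000387), from 147 ± 28.1 to 76.2 ± 10.4 FPKM (SD, n = 3). NEK7, the kinase that NLRP3 needs for assembly, had a log2 fold change of 0.25 (SE 0.19, edgeR adjusted p = 0.370).

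Of the 8 caspases outside 11q22 that are no members of the set, 7 passed the filter and none rose. CASP10, an initiator of death receptor signalling, fell by 1.15 on the log2 scale (SE 0.17, edgeR adjusted p = 5.8e-05), from 6.29 ± 0.971 to 2.80 ± 0.167 FPKM (SD, n = 3). CASP8, the related initiator, had a log2 fold change of -0.21 (SE 0.15, edgeR adjusted p = 0.348). Of the 4 other gasdermins, PJVK fell by 0.89 on the log2 scale (SE 0.30, edgeR adjusted p = 0.0390), a call lost in 4 of 6 fits that left out a library, with an adjusted p of up to 0.313 without Vector replicate 3. GSDMB had a log2 fold change of -0.49 (SE 0.24, edgeR adjusted p = 0.151), a value that turned on single libraries. It was -0.77 without Vector replicate 1 (edgeR adjusted p = 0.005) and -0.10 without Vector replicate 2 (edgeR adjusted p = 0.787).

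The guanylate-binding proteins, which open bacterial vacuoles and bring lipopolysaccharide to caspase-4, did not move together. GBP1 rose by 0.88 on the log2 scale (SE 0.22, edgeR adjusted p = 0.00641), from 1.37 ± 0.317 to 2.50 ± 0.345 FPKM (SD, n = 3). GBP2 fell by 0.63 on that scale (SE 0.19, edgeR adjusted p = 0.0193), a call lost without Vector replicate 2 (adjusted p = 0.105), Vector replicate 3 (0.0607), OE-MMP28 replicate 2 (0.0901) or OE-MMP28 replicate 3 (0.0675). GBP3 had a log2 fold change of 0.28 (SE 0.16, edgeR adjusted p = 0.220). HMGB1, a nuclear protein released by lytic death, rose by 0.44 on the log2 scale (SE 0.15, edgeR adjusted p = 0.0358), and that call was lost when any library other than Vector replicate 1 was left out, with adjusted p-values of 0.0525 to 0.129.

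None of the 5 transcription factors known to act on these genes was called, with IRF2 at a log2 fold change of -0.21 (SE 0.18, edgeR adjusted p = 0.428). The interferon response, which is known to induce CASP1, CASP4 and guanylate-binding proteins, was given as a list of 15 genes. It too was chosen with earlier results of these data known, and all 15 passed the filter. Of these 1 rose (IFI6, 1.5 on the log2 scale, edgeR adjusted p = 0.00104) and 6 fell (IFIT1, IFIT2, IFIT3, OAS1, STAT2 and RSAD2), against 11.7% of all genes that rose and 11.6% that fell, and the median log2 fold change was -0.07. The summed level of the list was 684 to 715 CPM in the Vector libraries and 531 to 554 CPM in the OE-MMP28 libraries. Most of the difference between these sums lay in OAS1, at 283 ± 17.8 CPM (SD, n = 3) in the Vector and 158 ± 10.2 CPM in the OE-MMP28 libraries. OAS3 lay the other way, at 93.1 ± 5.57 and 122 ± 14.5 CPM (log2 fold change 0.41, edgeR adjusted p = 0.0501). More genes of the list were thus called lower than higher, and its summed level was lower in every OE-MMP28 library. Its genes did not all move in 1 direction, and the part of the list in the differences of the set was not tested.

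The promoters of CASP4 and CASP5 are shown because both genes were higher in the OE-MMP28 libraries and both could be matched in the RefSeq table (GRCh38.p14), from 250 bases before to 50 after the start. Capitals mark matches to a pattern of interferon-responsive promoters, GAAA, any 2 bases and GAAA again, which was searched on both strands.
CASP4, chr11:104968525-104968824, minus strand: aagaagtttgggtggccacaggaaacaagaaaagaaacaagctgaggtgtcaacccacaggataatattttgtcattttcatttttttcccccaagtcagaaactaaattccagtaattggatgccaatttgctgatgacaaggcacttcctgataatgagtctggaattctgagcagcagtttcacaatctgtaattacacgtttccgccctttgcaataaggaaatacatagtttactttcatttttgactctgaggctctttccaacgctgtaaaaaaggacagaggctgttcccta
CASP5, chr11:105023119-105023418, minus strand: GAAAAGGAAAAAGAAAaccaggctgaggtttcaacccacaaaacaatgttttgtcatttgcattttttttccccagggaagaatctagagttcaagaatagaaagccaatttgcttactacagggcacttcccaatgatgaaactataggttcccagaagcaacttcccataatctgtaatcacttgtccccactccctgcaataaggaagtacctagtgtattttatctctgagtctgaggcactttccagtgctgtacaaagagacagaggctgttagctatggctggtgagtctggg
The CASP5 window held 2 matches, which overlap each other, and the CASP4 window held 0. Of 35116 promoters of the same length, 1255 (3.57%) held the pattern. The promoters of PYCARD and GSDME, also matched, held none. GSDMD was left out of this listing, and the promoters of CASP1, CARD16, CARD17, CARD18 and NLRP1 were not in the RefSeq table used. A match is a description of the letters and not of binding.

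Whether the 11q22 genes stood out from their surroundings was examined in the genes nearby. Within 1 Mb of the cluster, 27 other genes were listed. No read was counted in any library for 20 of them, the pseudogenes CASP1P1 and CASP1P2 and the caspase relative CASP12 among them, and 4 passed the filter. These 4 all lay on the same side of the cluster, 463 to 544 kb from its end. On the other side no gene within 1 Mb passed the filter. AASDHPPT, the enzyme that attaches phosphopantetheine to carrier proteins, rose by 0.67 on the log2 scale (SE 0.16, edgeR adjusted p = 0.00492), from 8.60 ± 0.346 to 13.6 ± 2.79 FPKM (SD, n = 3). MSANTD4 rose by 0.63 on the log2 scale (SE 0.18, edgeR adjusted p = 0.0161), a call lost without Vector replicate 2, OE-MMP28 replicate 1 or OE-MMP28 replicate 2 (adjusted p of 0.0531 to 0.0831). KBTBD3 had a log2 fold change of 0.09 (SE 0.23, edgeR adjusted p = 0.825). The remaining gene of the 4, with a mean below 1 FPKM, had a log2 fold change of 0.0 (SE 0.32, edgeR adjusted p = 0.995).

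In a window of 10 Mb to each side, 75 genes outside the set were tested, of which 32 rose and 1 fell in the edgeR fit. The 42.7% that rose compare with 11.7% of all genes, and their median log2 fold change was 0.50 against 0.014 over all genes tested. Of the set, CASP4 at 0.76 was the closest to that median, whereas CASP1 at 4.58 and CARD16 at 4.26 lay far above it. Among the 75 genes the collagenase MMP13, singled out after its values were seen, had a larger log2 fold change than CASP1, at 4.96. IL18 was also among the 75, at 0.59. The part of this regional shift in the values of the set and of IL18 was not tested.

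**Figure D4:**
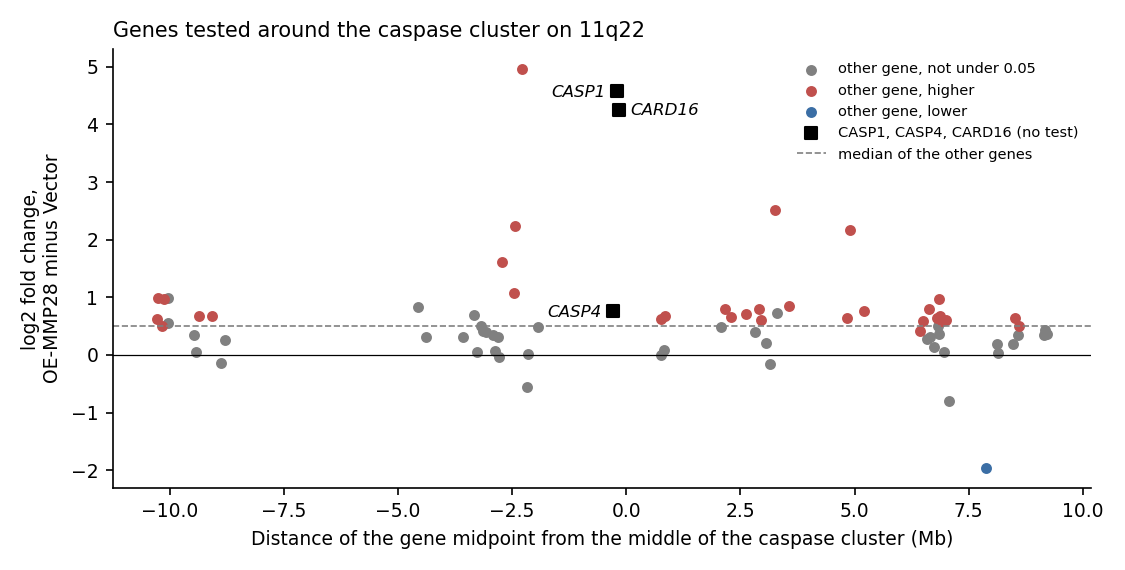
Log2 fold change between OE-MMP28 and Vector (vertical axis) of the genes tested within 10 Mb of the caspase cluster against the distance of their midpoints from its middle in Mb (horizontal axis), in red or blue where an edgeR adjusted p was under 0.05, with CASP1, CASP4 and CARD16 as black squares. The dashed line is the median of the other genes, 0.50, which lies under CASP4 and far under CASP1 and CARD16.

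The genes whose pattern over the 6 libraries was most like that of CARD16, by Pearson correlation of log2 CPM among 12254 genes whose mean level was 1 FPKM or more, were FAM120AOS (r = 0.9997), SLC9A7 (r = 0.9973) and LINC01843 (r = 0.9973). Over 2 groups of 3 libraries such a value mainly reflects the difference between the groups, and it is given as a description. The differences themselves were smaller than that of CARD16, with log2 fold changes of 0.23 for FAM120AOS, 2.44 for SLC9A7 and 1.12 for LINC01843.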

How the data were processed

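RNA of AsPC-1 cells was sequenced in 6 libraries, grouped as Vector and OE-MMP28 by the labels. The authors deposited 1 table with whole-number read counts and FPKM values per gene and library. HISAT2 2.0.5 and featureCounts 1.5.0-p3 are named in the submitters' processing notes. Their settings, such as strand and reads with several matches, were not given in the sources used here, and the labels name a NEBNext Ultra RNA kit. The authors' deposited table also held signal columns, log2 fold changes and p-values of their own comparison, which were not used. All per-sample columns were mapped to a sample (0 were not). The identifiers and coordinates of 58724 of the 58735 genes were those of GENCODE release 29 (GRCh38), whose transcripts gave the coding sequences and the 50-base windows.

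Counts were tested with edgeR 4.0.16 (R 4.3.3), with filterByExpr (minimum count 10, minimum total 15), TMM scaling, the quasi-likelihood test with the group alone in the model, and Benjamini-Hochberg adjustment over 15319 genes, called at 0.05. The study's methods name limma, which was kept as an alternative. The scripts were tested on simulated data. The 15 alternatives were 6 fits that each left out 1 library, the replicate number as a block, no filter, a minimum count of 30, upper-quartile scaling, DESeq2 size factors, DESeq2 1.42.0, limma 3.58.1 with voom, and limma on log2(FPKM + 1) and log2(FPKM + 0.1) where a gene's mean reached 0.5 FPKM. Total counts of 13633249 to 16691458 set the limit for a count of 0, taken as 3 counts, at 0.180 to 0.220 CPM.

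The members and lists were chosen with earlier results of these data known. The genes named were all members, MMP28, every pathway gene called and the most abundant one not called of each role, neighbours on 11q22 that were called or reached a mean of 1 FPKM, and the 3 genes most like CARD16. Other genes are named as list members, markers, pseudogenes or antisense partners, and NLRP3 and MMP13 were singled out after their values were seen.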

Additional observations from a re-analysis of the deposited data

How the results depend on the processing

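The directions of the 7 tested members held in every alternative that gave them a value. CASP1 and NLRP1 had none in both limma fits on FPKM, and NLRP1 none with a minimum count of 30. NLRP1 was no longer called without a filter, under upper-quartile scaling or in DESeq2. Among all genes, those called higher (1795) numbered 985 to 1916 and those called lower (1784) 1044 to 1949 when 1 library was left out, with the lowest of both without OE-MMP28 replicate 2, and 1136 higher without Vector replicate 3. In limma on log2(FPKM + 1) they numbered 1009 and 965, and on log2(FPKM + 0.1) 1000 and 970. Pathway genes called higher (3) numbered 1 in both limma fits on FPKM, and 2 to 3 when 1 library was left out. Pathway genes called lower (7) numbered 4 with a minimum count of 30, 2 in both of these limma fits, and 4 to 8 when 1 library was left out, with 4 without Vector replicate 3, OE-MMP28 replicate 2 or OE-MMP28 replicate 3. Neighbours called higher (2) numbered 1 in both of these limma fits and 1 to 2 when 1 library was left out. MMP28 kept its call throughout, with log2 fold changes of 0.69 to 1.05. The direction turned for NINJ1 (0.14), at -0.15 without OE-MMP28 replicate 3 in a range of -0.15 to 0.32 when 1 library was left out, and for KBTBD3 (0.09), at -0.06 without Vector replicate 1 in a range of -0.06 to 0.18, and the cause was not tested. The replicate numbers did not pair the libraries, with correlations of same-numbered deviations of 0.0168, 0.00798 and -0.0876. With the replicate number as a block, 1844 genes were higher and 1841 lower, 4 pathway genes were higher and 7 lower, and NLRP3 was gained (0.88, edgeR adjusted p = 0.0328). The limit of about 0.2 CPM leaves CARD17, CARD18 and the Vector level of CASP1 and CASP5 unresolved.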

Other observations

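NLRP3, the sensor most studied in macrophages, was detected in these epithelial cells at 0.289, 0.669 and 0.799 FPKM in the Vector libraries and 1.14, 0.955 and 0.962 FPKM in the OE-MMP28 libraries. Its groups did not overlap, but the log2 fold change of 0.81 (SE 0.32) had an edgeR adjusted p of 0.0710, and over 15 alternatives that p ran from 0.0328 to 0.234. The gene was singled out after its values were seen.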
